A study of Sus scrofa with 7 samples.

Results

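The genes examined here store and release glycogen, the glucose polymer that heart muscle keeps as a fuel reserve. They are 9 genes of 20638 with a symbol in the deposited table: PPP1R3A, PPP1R3B, PPP1R3C and PPP1R3D, which steer a phosphatase to glycogen, the synthesis genes GYS1, GBE1 and GYG1, and the phosphorylase genes PYGM and PYGB. Members were found by symbol. The transcript row of each gene was chosen by its mean over the 7 libraries, the highest being kept. That choice does not use the group labels, but the list itself was drawn up with earlier results of these data known. The 9 genes had 15 rows between them. The 4 rows of GYG1 were identical and PPP1R3B had 2 distinct versions among its 4 rows, so the row kept mattered little.

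RNA was sequenced from the anteromidventricular heart wall of male farm pigs, 14 weeks after an infarct fed by the left circumflex artery (LCX). All animals carried an infarct and the gene delivery vector AAV5, an adeno-associated virus. In the 3 libraries labelled hrLuc the vector carried a luciferase reporter, and in the 4 libraries labelled S100a1 the cargo was human S100A1, which binds calcium in cardiomyocytes. The titles number each library as its own pig. Each library also has a library number, in replicate order 33, 39 and 45 for hrLuc, and 57, 9, 15 and 21 for S100a1. Whether these numbers reflect an order of handling was not tested. The promoter of the vector, the age of the animals and the distance of the sampled wall from the scar are not stated in the sources used here, and healthy or untreated hearts were not analysed here.

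Glycogen is built on the protein glycogenin, lengthened by glycogen synthase and branched by the branching enzyme, and glycogen phosphorylase releases its glucose units again. Phosphorylation turns synthase off and phosphorylase on. Protein phosphatase 1 removes those phosphates, and the PPP1R3 family of targeting subunits brings it to the glycogen particle. In the heart the store is drawn on when oxygen or blood-borne fuel runs short, and phosphorylase kinase ties its breakdown to calcium.

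The libraries held 28651643 to 38376242 reads with 1 row kept per gene, and the 9 members had 347 to 41346 reads each in a library, so all 9 were among the 15652 genes with enough reads to test. Values below are normalized read counts, that is, reads divided by a scaling factor of the library. Transcript lengths were not used here, so levels are compared between libraries and not between genes. Fold changes are S100a1 over hrLuc on the scale of log2(value + 0.5), fitted with limma, and p-values are adjusted over all genes tested with a threshold of 0.05. The pig S100A1 gene had a mean of 7718 normalized counts (SD 1298, n = 3) among hrLuc libraries and of 5933 (SD 1064, n = 4) among S100a1 libraries. The vector carries the human gene, and how its reads were counted is not stated in the sources, so these values are no check of the labels. Cardiomyocyte markers were abundant in every library. The summed level of the 9 markers with a row, of 10 listed, ran from 1878804.8 to 2164313.2 in hrLuc and from 1983350.0 to 2211230.0 in S100a1, so the groups overlapped.

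None of the 9 glycogen genes passed the threshold in limma, where 0.0128% of all genes tested did, either way. The nearest was PPP1R3A, the muscle targeting subunit, which was about 1.29-fold higher in S100a1. With an unadjusted p under 0.05 there was 1 member, PPP1R3A, against 8.27% of all genes tested. For 3 members the hrLuc and S100a1 values were fully separate, namely PPP1R3A and PYGB on the higher side and PPP1R3D on the lower side, against 3.96% of all genes that did not overlap on the higher side and 5.31% on the lower. Of the 9 fold changes 4 were positive and 5 negative, with a median log2 of -0.004. Over all genes tested 43.5% were positive and the median was -0.02. The 9 genes therefore showed no common direction. On the reads recovered from the table edgeR (0.0128% of all genes called) and limma-voom (0%) also called 0 members, and DESeq2 (0.575%) called 1, PPP1R3A.

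**Figure D1:**
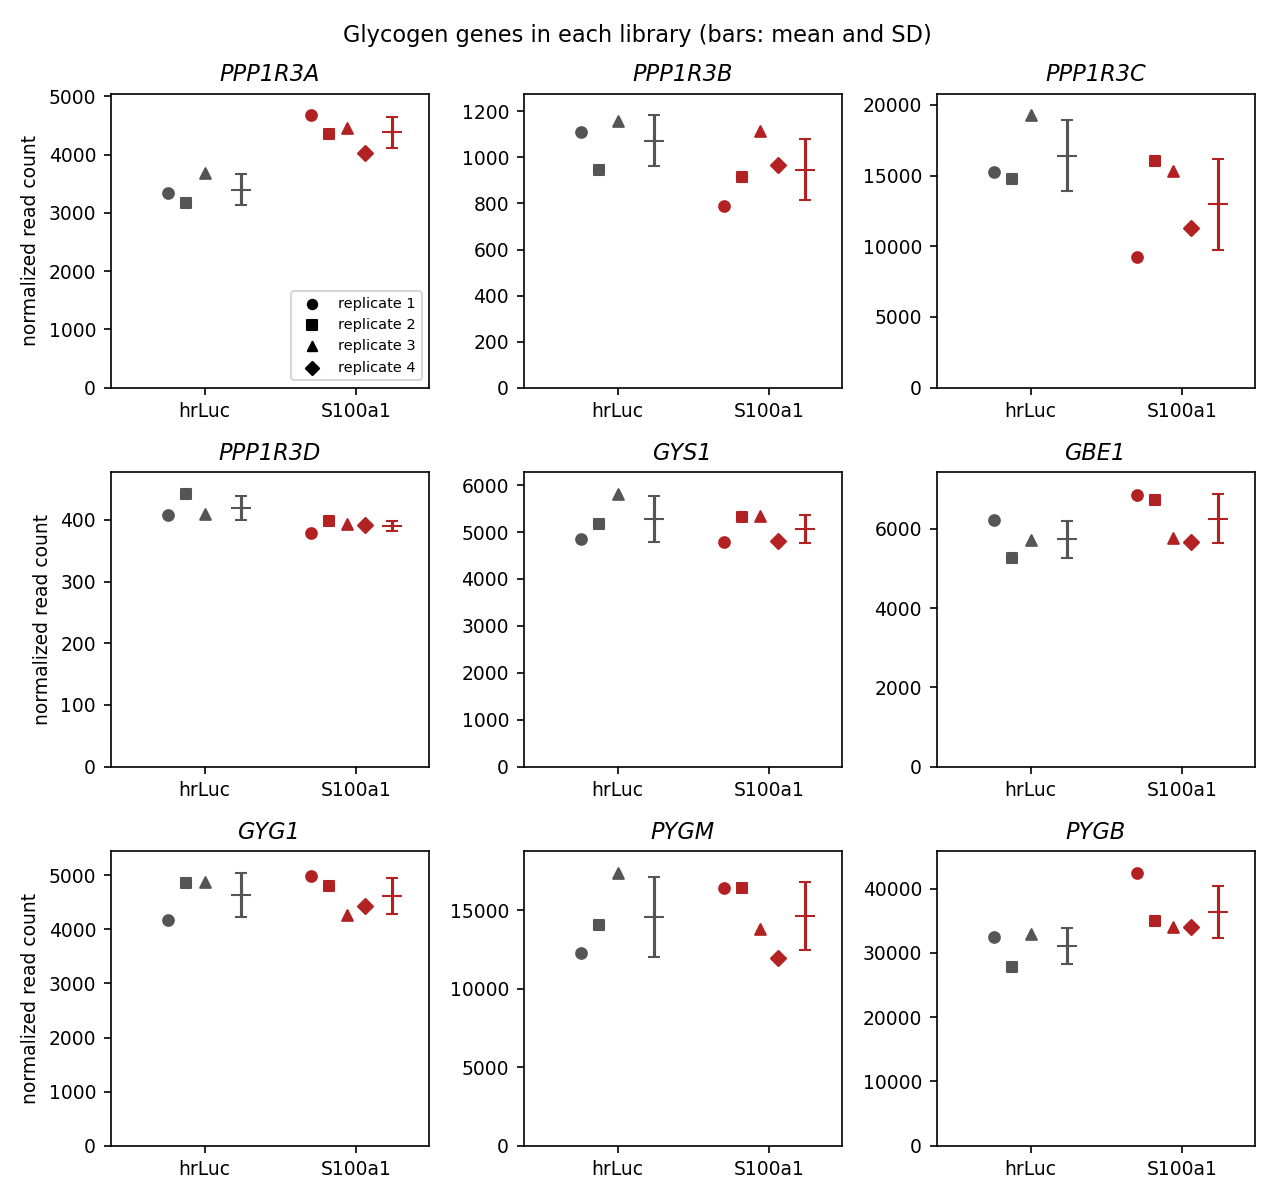
Normalized read count (vertical axes, starting at 0) of each of the 9 glycogen genes in the hrLuc libraries (grey) and the S100a1 libraries (red). Symbols are replicates and the bars beside them are the mean and SD. The S100a1 libraries of PPP1R3A sit between 4032 and 4677, all above the hrLuc libraries, whereas the groups of GYG1 and PYGM lie over each other.

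PPP1R3A encodes the large targeting subunit of striated muscle, known as GM or RGL, which anchors the phosphatase to both glycogen and the sarcoplasmic reticulum. The gene lies on chromosome 18 from 31997667 to 32039949 (Sscrofa11.1) and overlaps no other annotated gene. Its normalized count was 3349, 3169 and 3683 in the hrLuc libraries (replicates 1 to 3). It was 4677, 4357, 4465 and 4032 in the S100a1 libraries (replicates 1 to 4), the order used for all genes below. Every S100a1 library was above every hrLuc library, and the gap between the lowest S100a1 and the highest hrLuc value was wider than the SD of either group. The means were 3400.4 ± 261 (SD, n = 3) and 4383 ± 269 (SD, n = 4), a log2 fold change of 0.37 ± 0.08 (SE) with a 95% interval from 0.19 to 0.54. The unadjusted p was 0.00110 in limma, the 40th smallest of the genes tested, and the adjusted p was 0.420. A permutation test, exact and two-sided, gave p = 0.0286, the smallest this design allows.

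The size of the PPP1R3A difference hardly depended on the method, but its adjusted p did. Leaving out each library in turn gave log2 fold changes from 0.32 to 0.43, and adjusted p-values in limma from 0.362 to 0.927. DESeq2 on the recovered reads gave a log2 fold change of 0.39 with an adjusted p of 0.00363, where 0.575% of the genes it tested were called. The authors' deposited table gives PPP1R3A a fold of 1.29 and an adjusted p of 0.0105. In that table PPP1R3A was the 1 member under 0.05, and 0.729% of the genes tested here were under it, each read at its kept row. Set against the summed cardiomyocyte markers of the same library, a measure chosen after the values had been seen, PPP1R3A was 0.28 ± 0.05 (SD, n = 4) higher on the log2 scale in S100a1, with an SD of 0.04 in hrLuc, and the groups again did not overlap. The share of all genes separate on this measure was not computed. The marker sum weighs the most abundant markers most. Log2 fold changes of the single markers ran from -0.13 to 0.42, beside 0.37 for PPP1R3A. In whole tissue, more cells of a type and more RNA per cell cannot be told apart.

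**Figure D2:**
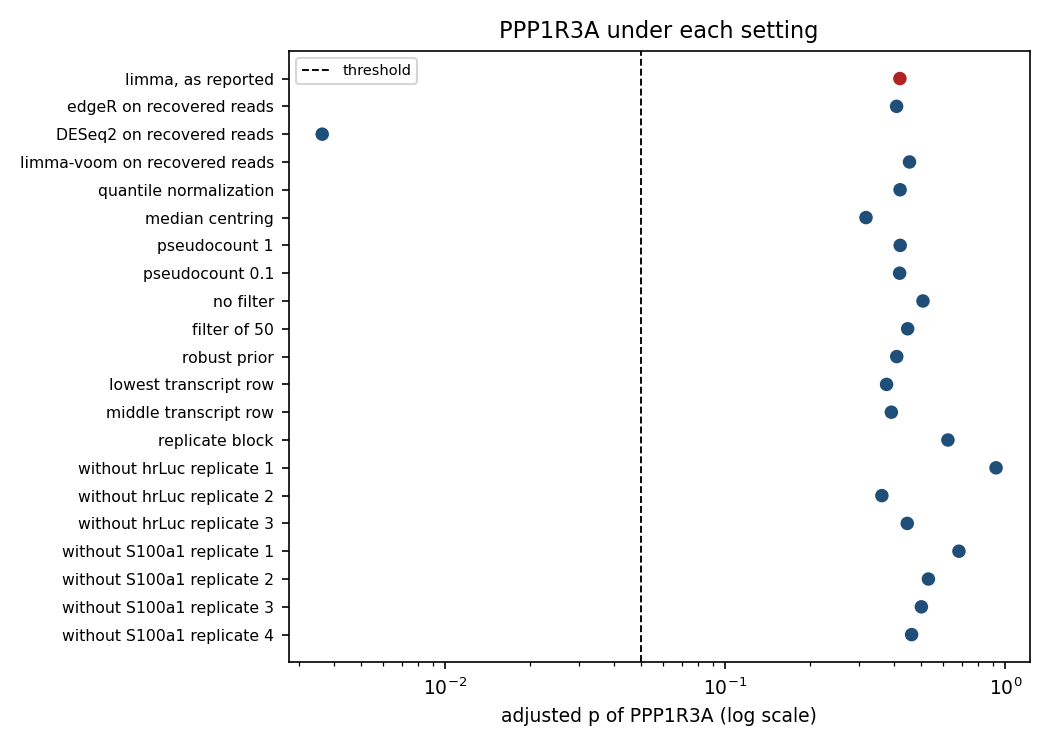
Adjusted p of PPP1R3A (horizontal axis, log scale) under the reported limma fit (red) and each other setting (blue, 1 line each), with the threshold of 0.05 dashed. DESeq2 alone lies left of the threshold, at 0.00363, and the others lie between 0.318 and 0.927.

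PPP1R3C encodes PTG, a small targeting subunit found in many tissues that binds synthase and phosphorylase as well as glycogen, and it was the most variable of the 9 genes. It lies on chromosome 14 from 103273401 to 103278757. Its normalized count was 15258, 14733 and 19268 in hrLuc. In S100a1 it was 9225, 16028, 15297 and 11309.6. Replicates 1 and 4 of S100a1 were below every other library, while replicates 2 and 3 lay within the hrLuc range, so the groups overlapped. The log2 fold change was -0.37 ± 0.19 (95% interval -0.80 to 0.07, adjusted p = 0.635 in limma). The permutation test, exact and two-sided, gave p = 0.286. Without S100a1 replicate 1 it was -0.21. The SD within groups was 0.32 on the log2 scale, against a median of 0.16 over the genes tested. Set against the summed cardiomyocyte markers of each library, PPP1R3C was at -0.46 ± 0.40 (SD, n = 4) relative to the hrLuc mean. The SD in hrLuc was 0.10. On that measure, chosen after the values had been seen, the groups did not overlap. The nearest values were -0.15 in S100a1 and -0.08 in hrLuc. The normalized counts themselves overlapped, and the share of all genes separate on this measure was not computed. The S100a1 replicate 1 library also had the lowest summed fibroblast markers, 84810.0 against 107564.3 to 152176.5 in the others. S100a1 replicate 4, also low in PPP1R3C, had 134891.6, within the hrLuc range. Replicate 2, which was not low in PPP1R3C, had 107564.3. The part of fibroblast markers in the PPP1R3C values was not tested.

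PPP1R3B and PPP1R3D, the other targeting subunits among the members, differed less. PPP1R3B encodes GL, best known from liver, where it makes synthase activation sensitive to active phosphorylase, and lies on chromosome 15 from 56002383 to 56013477. It had 1112, 947 and 1158 normalized counts in hrLuc, and 789, 917, 1113 and 969 in S100a1 replicates 1 to 4. The S100a1 values ran from below to within the hrLuc range, with a log2 fold change of -0.18 ± 0.12 (95% interval -0.46 to 0.09, adjusted p = 0.684 in limma). Without S100a1 replicate 1 it was -0.10.

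PPP1R3D, which encodes a targeting subunit of wide expression, had the fewest reads of the members and the tightest values. It had 407, 442 and 409 normalized counts in hrLuc, and 379, 398, 393 and 392 in S100a1. All S100a1 libraries were below all hrLuc libraries, by a margin of 398 against 407. The log2 fold change was -0.10 ± 0.08 (95% interval -0.29 to 0.09, unadjusted p = 0.248 and adjusted p = 0.744 in limma). It was -0.065 without hrLuc replicate 2 and -0.056 with median centring. The permutation test, exact and two-sided, gave p = 0.0286. Relative to the summed cardiomyocyte markers of each library, PPP1R3D was at -0.19 ± 0.09 (SD, n = 4) in S100a1, centred on the hrLuc mean. The SD in hrLuc was 0.16, and on that measure the groups overlapped. The gene (chromosome 17, 59963560 to 59967143) overlaps FAM217B, whose log2 fold change was -0.22 ± 0.10, and whether reads of the 2 genes were kept apart is not stated in the sources used here.

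The targeting subunits thus did not move as a family, with 1 positive and 3 negative fold changes among 4. The balance between PPP1R3A and PPP1R3C, looked at after their values had been seen and so given without a test, did not overlap between the groups. PPP1R3A has the highest and PPP1R3C the lowest fold change of the members, so a wide difference in their ratio followed from the choice. The ratios of PPP1R3A to PYGB and of PYGB to GYS1, also looked at, overlapped. The share of all gene pairs that separate was not computed. The log2 ratio of PPP1R3A to PPP1R3C was -2.19, -2.22 and -2.39 in hrLuc, and -0.98, -1.88, -1.78 and -1.49 in S100a1. The means were -2.26 ± 0.11 (SD, n = 3) for hrLuc and -1.53 ± 0.40 (SD, n = 4) for S100a1, with S100a1 replicate 1 the farthest from hrLuc.

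**Figure D3:**
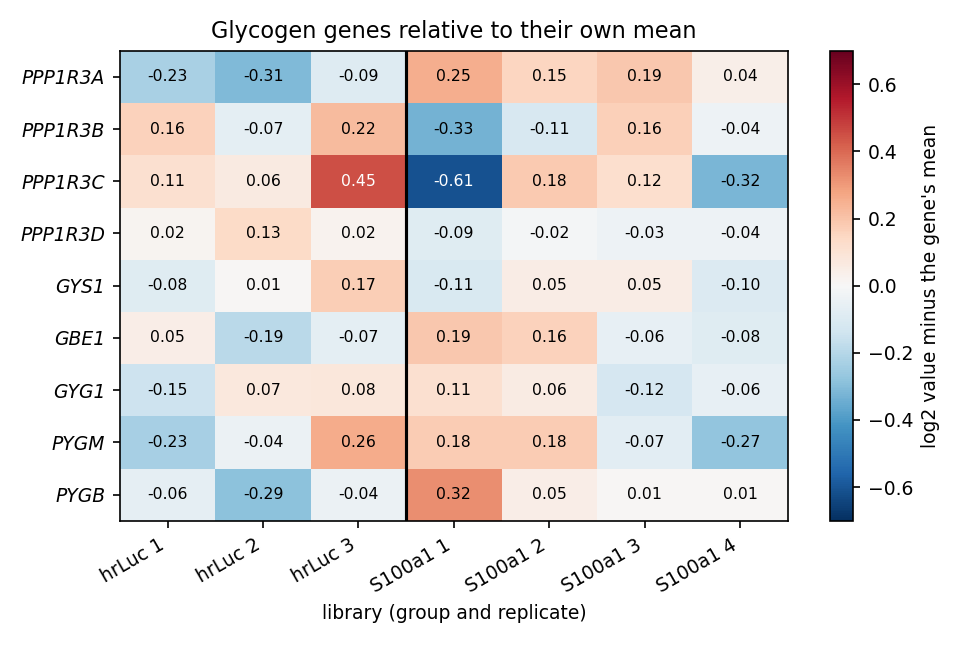
Log2 value of each glycogen gene (rows) in each library (columns) minus the mean of that gene over the 7 libraries, with red above and blue below the mean and the number printed in each cell. PPP1R3A is below its mean in all hrLuc and above it in all S100a1 libraries, and PPP1R3C spans the widest range, from -0.61 in S100a1 replicate 1 to 0.45 in hrLuc replicate 3.

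The synthesis enzymes were close to level between the groups. GYS1, the muscle glycogen synthase that adds glucose units to the growing chain, had 4850.1, 5179 and 5804 normalized counts in hrLuc, and 4779.6, 5322, 5332 and 4814 in S100a1. The groups overlapped, with a log2 fold change of -0.06 ± 0.08 and a 95% interval from -0.24 to 0.13 (adjusted p = 0.854 in limma). GYS1 (chromosome 6, 54234600 to 54250211) overlaps the noncoding LOC110261018.

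GYG1, glycogenin, which primes each glycogen particle by glucosylating itself, had 4177, 4866 and 4874 normalized counts in hrLuc, and 4992, 4809, 4258 and 4436 in S100a1. Its log2 fold change of -0.004 ± 0.08 (adjusted p = 0.992 in limma) had a 95% interval from -0.20 to 0.19, a fold of 0.873 to 1.14. The gene lies on chromosome 13 from 89221086 to 89259569.

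GBE1, the branching enzyme, had 6212, 5272 and 5729 normalized counts in hrLuc, and 6848, 6722, 5765 and 5671 in S100a1. Replicates 1 and 2 of S100a1 were above all hrLuc libraries and replicates 3 and 4 within their range. The log2 fold change was 0.12 ± 0.09 (95% interval -0.09 to 0.33, adjusted p = 0.731 in limma), and 0.062 without hrLuc replicate 2. GBE1 lies on chromosome 13 from 173634401 to 173909646 and overlaps the pseudogene LOC102159217.

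Of the phosphorylases, which release glucose 1-phosphate from the ends of the chains, PYGB was higher in every S100a1 library and PYGM was not. PYGB encodes the isoform named for brain, which the heart also makes, and lies on chromosome 17 from 30940457 to 30995688. It had 32409, 27779 and 32962 normalized counts in hrLuc, and 42376, 34988, 34056 and 34002 in S100a1. The groups did not overlap, but S100a1 replicates 2 to 4 were near the upper hrLuc values and replicate 1 stood well above them. The means were 31050.0 ± 2846 (SD, n = 3) and 36355 ± 4039 (SD, n = 4). The log2 fold change was 0.23 ± 0.11 (95% interval -0.03 to 0.48, adjusted p = 0.618 in limma). The permutation test, exact and two-sided, gave p = 0.0286. Without S100a1 replicate 1 or hrLuc replicate 2 the log2 fold change was 0.15. Set against the summed cardiomyocyte markers of each library, PYGB was 0.14 ± 0.11 (SD, n = 4) higher on the log2 scale in S100a1, with an SD of 0.11 in hrLuc, and the groups overlapped.

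PYGM, the muscle isoform, had 12292, 14059.6 and 17338 normalized counts in hrLuc, and 16385, 16372, 13762 and 11958 in S100a1. Both groups covered nearly the same range, with a log2 fold change of 0.01 ± 0.15 (95% interval -0.32 to 0.34, adjusted p = 0.990 in limma). The gene lies on chromosome 2 from 7409330 to 7421256. Phosphorylase paralogs are similar in sequence, and how shared reads were counted is not stated in the sources used here. The log2 ratio of PYGB to PYGM was 1.10 ± 0.26 (SD, n = 3) for hrLuc and 1.32 ± 0.17 (SD, n = 4) for S100a1, and the groups overlapped. Skeletal muscle markers, which would accompany muscle isoforms from another muscle, summed to 24.5 to 142.2 normalized counts in hrLuc and 43.4 to 77.5 in S100a1 over 4 genes.

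**Figure D4:**
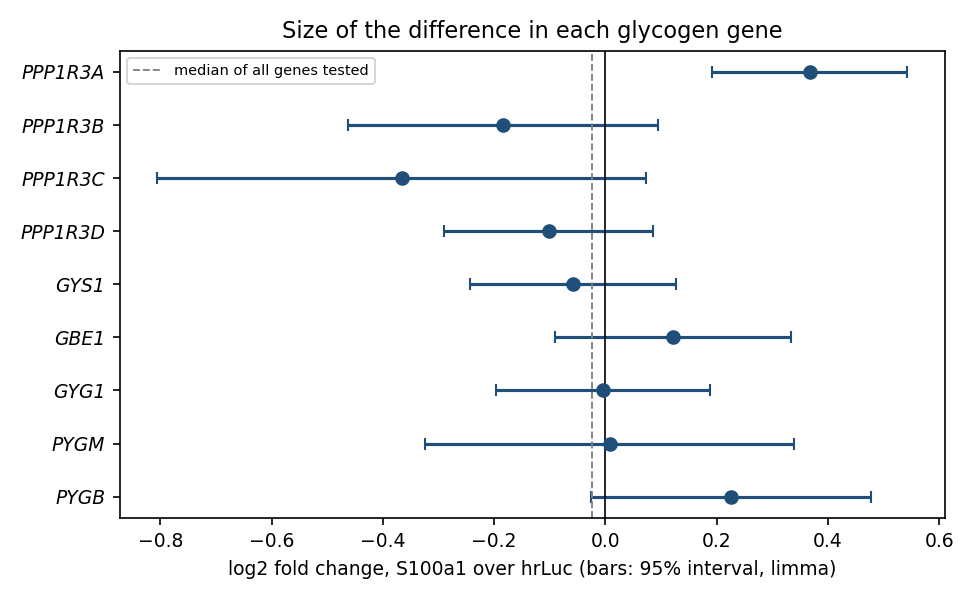
Log2 fold change of S100a1 over hrLuc (horizontal axis) for each glycogen gene, with its 95% interval from limma as a bar, and the median of all genes tested as a dashed line at -0.02. The interval of PPP1R3A, from 0.19 to 0.54, is the 1 interval that leaves out 0. The intervals are not adjusted for the number of genes.

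The exact two-sided permutation test was run for all 9 members. Its p-values are unadjusted, and 0.0286 is the smallest this design allows. The test was not run over all genes tested, so the share of all genes at each p is not known. It gave 0.0286 for PPP1R3A, PPP1R3D and PYGB, 0.229 for PPP1R3B, 0.286 for PPP1R3C and GBE1, 0.6 for GYS1, and 1 for GYG1 and PYGM. The smallest p can be reached only where the groups do not overlap. For PPP1R3A, PPP1R3D and PYGB it therefore repeats the separation given above and is no further support. Over all genes tested, 3.96% did not overlap on the higher side and 5.31% on the lower.

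The patterns over the 7 libraries that lay nearest to those of PPP1R3A and PPP1R3C came from outside the glycogen pathway. Nearness was the root mean square difference of log2 values, each centred on its gene's mean, over 14288 other genes with a symbol. It describes these 7 libraries and has no test. For PPP1R3A, whose own values lay 0.20 from their mean by this measure, the nearest were HSPB3, a small heat shock protein of muscle (0.07), FAXC (0.07), MYZAP, a protein of the intercalated disc that joins heart muscle cells (0.07), SYN2 (0.07) and ZNF527 (0.07). HSPB3 had 530.7, 525 and 642 normalized counts in hrLuc and 834, 718, 691 and 669 in S100a1. PYGB was the nearest member, at rank 56 with 0.11. For PPP1R3C, whose own values lay 0.33 from their mean, the nearest were PTGDS, a prostaglandin D2 synthase (0.05), MICALL1 (0.10), RWDD2B (0.10), ABHD11 (0.10) and IGFBP3, which binds insulin-like growth factors (0.11). PTGDS had 516, 489.7 and 653 normalized counts in hrLuc and 326, 584, 552 and 408 in S100a1, so it too was low in S100a1 replicates 1 and 4. PPP1R3B, at rank 398, was the member nearest to PPP1R3C.

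Among 49 other genes of glycogen metabolism and its control, 48 were tested, and 0 passed the threshold in either direction in limma. With an unadjusted p under 0.05 there were 3 on the higher side and 3 on the lower, where 3.69% and 4.57% of all genes tested were. edgeR, DESeq2 and limma-voom on the recovered reads called 0 of them, and the adjusted p in the authors' deposited table was under 0.05 for 0 of the 49. The fold changes were 26 positive and 22 negative with a median log2 of 0.01, where 43.5% of all genes tested were positive. The groups did not overlap for 2 of the 48 on the higher side and 3 on the lower, against 3.96% and 5.31% of all genes tested. The liver synthase GYS2 had too few reads to be tested.

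The 6 genes with an unadjusted p under 0.05 belonged to the insulin signal and to glucose supply. The insulin receptor INSR had 7580.0, 9023 and 9451 normalized counts in hrLuc and 11531, 10561, 9937 and 12540.3 in S100a1, with no overlap (log2 fold change 0.36 ± 0.11, adjusted p = 0.529 in limma). The receptor substrates that pass the signal on had log2 fold changes of 0.36 ± 0.13 for IRS1, with overlapping groups, and 0.27 ± 0.09 for IRS2, without overlap. The adjusted p in limma was 0.556 for IRS1 and 0.540 for IRS2. AKT1, a kinase that inactivates the synthase kinase GSK3, was on the other side, with 4061, 3692 and 3642 in hrLuc and 2937, 3050.2, 3109 and 3400.4 in S100a1. Its groups did not overlap, and its log2 fold change was -0.28 ± 0.07 (adjusted p = 0.513 in limma). AKT2, the isoform best known for insulin action on glucose, was at -0.03 ± 0.08. Insulin signalling genes therefore lay on both sides, with 4 of 6 positive.

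Glucose supply genes were as mixed. SLC37A4, which carries glucose 6-phosphate into the endoplasmic reticulum, and G6PC3, a phosphatase that acts on it there, were lower in every S100a1 library. SLC37A4 had 266, 238 and 233 normalized counts in hrLuc and 201, 202, 200.2 and 191 in S100a1 (log2 fold change -0.31 ± 0.10, adjusted p = 0.540 in limma). G6PC3 had 279, 278 and 273 in hrLuc and 227, 241, 234 and 234 in S100a1 (log2 fold change -0.24 ± 0.09, adjusted p = 0.567 in limma). The insulin-responsive glucose transporter SLC2A4 (-0.09 ± 0.13), the basal transporter SLC2A1 (0.07 ± 0.10) and the hexokinases HK1 (0.12 ± 0.13) and HK2 (0.30 ± 0.18), which trap glucose in the cell, had overlapping groups.

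**Figure D5:**
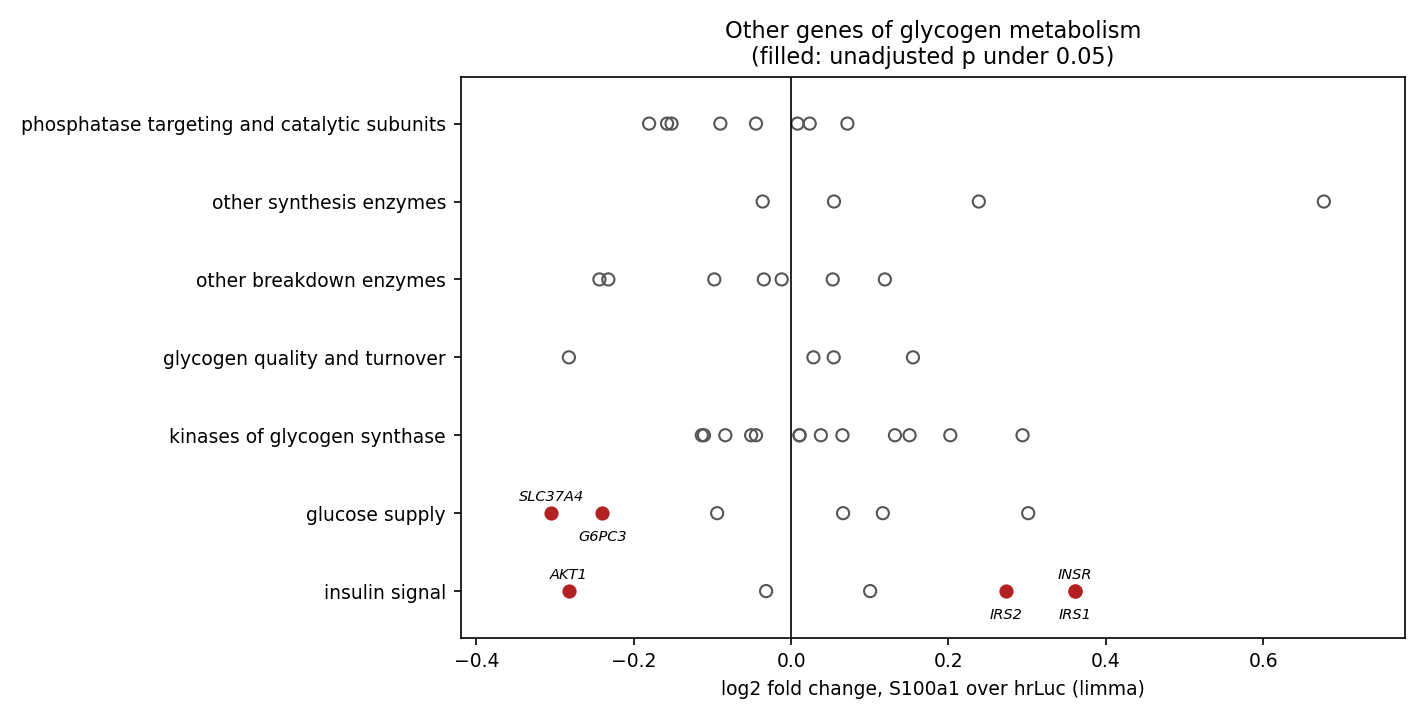
Log2 fold change of S100a1 over hrLuc (horizontal axis) for each other gene of glycogen metabolism that was tested, 1 circle a gene, by list (vertical axis). Filled and named circles have an unadjusted p under 0.05, 3 on each side of 0, and none passed the adjusted threshold.

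In the remaining lists 0 genes had an unadjusted p under 0.05. Of the 8 other subunits and partners of the phosphatase, 3 were positive, with a median log2 of -0.07, and the catalytic subunits PPP1CC and PPP1CA were at -0.16 ± 0.09 and -0.15 ± 0.11. PPP1R3G, another targeting subunit, was at -0.18 ± 0.23. Of 4 other synthesis enzymes tested, 3 were positive, with a median log2 of 0.15. GYG2, the second glycogenin, was at 0.68 ± 0.38, the widest of the 48 fold changes, with values from 112 to 284 in hrLuc and from 177 to 402 in S100a1, and PGM1, which interconverts the glucose phosphates, at 0.24 ± 0.18.

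Of 7 other breakdown enzymes, 5 were negative. The liver phosphorylase PYGL was at -0.24 ± 0.11 and the lysosomal glucosidase GAA, which degrades glycogen that reaches the lysosome, at -0.23 ± 0.12. The subunits of phosphorylase kinase, through which calcium and cyclic AMP switch phosphorylase on, were at -0.03 ± 0.08 (PHKA1), 0.12 ± 0.21 (PHKA2), -0.01 ± 0.09 (PHKB), 0.05 ± 0.11 (PHKG1) and -0.10 ± 0.11 (PHKG2).

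Of 13 kinases and kinase subunits that act on glycogen synthase, 8 were positive, with a median log2 of 0.01. PRKAA2, the catalytic subunit of AMP-activated protein kinase typical of muscle, was at 0.20 ± 0.09, CSNK2A1, of casein kinase 2, at -0.11 ± 0.07 and GSK3B at 0.01 ± 0.07. PRKAG2, the regulatory subunit whose inherited variants cause glycogen storage in the heart, was at 0.29 ± 0.23, with overlapping groups. S100a1 replicates 1 and 2 had 5885 and 6794 normalized counts of PRKAG2, and replicates 3 and 4 had 3623 and 3438. In hrLuc it ran from 3606 to 4002. Among 4 genes that guard glycogen quality or carry it to lysosomes, the ubiquitin ligase NHLRC1 (malin) was at -0.28 ± 0.19, its partner EPM2A (laforin) at 0.03 ± 0.08 and the autophagy gene GABARAPL1 at 0.15 ± 0.13.

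Markers of other cell types that the tissue could hold were present in all libraries, and their summed levels overlapped between the groups for each of the lists used. Of the single markers tested, 1 of 7 for fibroblasts and 1 of 5 for T cells were lower in every S100a1 library. On the higher side, 1 of 7 endothelial and 1 of 9 cardiomyocyte markers did not overlap. Over all genes tested, 5.31% did not overlap on the lower side and 3.96% on the higher, and 43.5% of fold changes were positive. Fibroblast markers had negative fold changes in 7 of 7 genes (summed level 130963.6 to 152176.5 in hrLuc, 84810.0 to 136604.8 in S100a1), and T cell markers in 5 of 5 (232.0 to 590.0 against 185.6 to 288.3). Their median log2 fold changes were -0.22 and -0.79. Smooth muscle and pericyte markers were negative in 6 of 7 (median -0.34) and endothelial markers in 6 of 7 (median -0.07). Macrophage markers were split, with 3 of 6 positive, and Schwann cell markers were positive in 4 of 4 (median 0.41). Of the markers with enough reads, 2 of 3 for adipocytes were positive and 2 of 2 for skeletal muscle negative. Cardiomyocyte markers were positive in 6 of 9, with a median log2 of 0.08. No marker was at 0 in every library. Their part in the values of the glycogen genes was not tested, beyond the levels set against cardiomyocyte markers given above.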

How the data were processed

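Libraries were made from total RNA (Qiagen AllPrep) with ribosomal RNA depleted, per the labels' protocols. The deposited table has 63562 transcript rows. Its library values are a signal, which the authors made by dividing read counts by 1 factor per library. In each library 100% of values were whole multiples of 1 read within 0.01 read (1 read was worth 0.824 to 1.14 units), so reads were recovered. The deposited log2 and ratio columns hold the authors' fold change, and the deposited p-value column their adjusted p, whose method is not named. The submitters' processing notes name DESeq2 1.33.1, FastQC 0.11.8, R 4.1.2 and the build Sscrofa11.1. The aligner, the counter and its strand setting are not stated in the sources used here. All 63562 rows matched the RefSeq table of Sscrofa11.1, which gave positions.

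The design had been fixed for normalized values as for counts, and the first was used. A gene was tested if 3 or more libraries reached 10 normalized counts. On log2(value + 0.5) of all 15652 such genes, limma 3.58.1 was run in R 4.3.3 with a mean-variance trend, with 5 residual and 3.85 prior degrees of freedom, two-sided with Benjamini-Hochberg adjustment. A fold change on this scale understates that of genes with few reads. The fit was tested on simulated counts. Alternatives were limma-voom, DESeq2 1.42.0 and edgeR 4.0.16 on recovered reads, other scalings, pseudocounts, filters, priors and transcript rows, the replicate number as a block, and each library left out. The members and lists were chosen with earlier results of these data known. All members are named, and of each other list the genes with an unadjusted p under 0.05 or, where fewer than 2, the 2 of smallest p. Further genes of those lists were named after their values were seen.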

Additional observations from a re-analysis of the deposited data

Results flagged for a closer look

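PYGB stood out in 1 library. In S100a1 replicate 1 it had 42376 normalized counts, and the gap to the next S100a1 library (34988) was 0.882 of the whole range of the 4 S100a1 libraries, above Dixon's critical value for 4 values at the 95% level. Without that library the log2 fold change of PYGB was 0.15 in place of 0.23. The 4 S100a1 libraries were examined in this way for 25 genes, the 9 members and 16 other glycogen genes. PYGB was the 1 gene flagged of these 25. Chance flags about 1 group in 20, so 1 flag is near what chance alone gives. The 3 hrLuc libraries are too few for this check.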

How the results depend on the processing

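Over all genes 2 passed the threshold (adjusted p under 0.05, limma), and this count was 90 with DESeq2 and 0 with limma-voom on the recovered reads, 1 with median centring, 12 without a filter, and 0 to 3 with a library left out. Members past the threshold numbered 0 except with DESeq2, where PPP1R3A made 1. The replicate numbers did not pair the libraries (correlations of deviations -0.02, -0.08 and 0.08), and with the replicate number as a block 0 genes passed. The number 4 occurs in S100a1 alone, so the block also sets that library aside, and without that library and with no block 0 genes passed too. Fold changes near 0 changed sign. GYG1 was at 0.017 with edgeR, 0.016 with DESeq2, 0.019 with limma-voom, 0.042 with median centring and 0.015 with the replicate block, and ran from -0.078 to 0.035 with a library left out. PYGM was at -0.082 with quantile normalization and ran from -0.11 to 0.14 with a library left out, and GYS1 ran from -0.12 to 0.012. The other 6 members kept their sign under every alternative run. With 3 and 4 libraries the intervals given above limit what could be seen, and the cause of the differences between tools was not tested.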
